A study of Mus musculus with 15 samples.

Results

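The sodium pump and the FXYD proteins that regulate it were followed in mouse cardiomyocytes after whole-body proton irradiation. The set holds 3 beta subunits of the pump (Atp1b1, Atp1b2 and Atp1b3) and 4 FXYD genes (Fxyd1, Fxyd2, Fxyd5 and Fxyd6). They were found by symbol in the array's probe annotation, among probe sets that carry a single gene symbol, and the probe set with the highest mean over the 15 arrays stood for each gene. All 7 genes were found among 19937 genes with such a probe set. All 7 also lay above the median of all probe sets, a log2 signal of 5.00, which 12102 genes passed. The genes were put together with their values in these arrays known, and Fxyd2 was chosen by its log2 difference between the late and the early days after protons. That difference and the differences of Fxyd2 from sham at days 1, 3, 12 and 26 are therefore given as a description, with no test.

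The animals were adult male C57Bl/6NT mice, an inbred laboratory strain, aged 8 to 9 months. Whole-body exposure was to 1 GeV protons at a dose of 90 cGy, or sham, and no transgene or other agent is named. Cardiomyocytes of the left ventricle were freed by perfusion with collagenase and returned to calcium stepwise, and per the labels more than 90% were calcium-tolerant cardiomyocytes, while the suspension could still hold inflammatory and endothelial cells. By the titles, 3 sham arrays (2 of day 1 and 1 of day 3) stand beside 2 proton arrays of day 1, 3 of day 3, 3 of day 5, 2 of day 12 and 2 of day 26. The series' design text gives the last 3 days otherwise and also names iron ions, and the titles, which give only protons and sham, are used here. Every proton day was compared with the same 3 sham samples, so the differences of the 5 days share their control, and for days 5, 12 and 26 no sham was taken on the same day. Proton day 5 replicates 1 and 2 differed by less than any other pair of arrays (SD of their log2 differences 0.0768, against 0.222 to 0.527 for the other pairs) and were counted as 1 sample, which left 14 samples. Nothing in the labels ties each array to a mouse of its own, so the p-values measure only the spread between these samples. So few arrays limit how precise any value can be.

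The sodium pump (Na,K-ATPase) uses ATP to move sodium out of the cell and potassium in, and in the heart muscle cell the sodium gradient it keeps sets how much calcium the sodium-calcium exchanger can remove. Its alpha subunit carries out transport and binds cardiac glycosides. The beta subunit, a glycoprotein, is needed for the pump to fold and reach the cell surface, and FXYD proteins, small proteins with a single membrane span, associate with the pump and tune its affinity for ions and its rate. Phospholemman, the product of Fxyd1, is the main FXYD protein of heart muscle and restrains the pump until it is phosphorylated.

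The 250 bases before the start of 4 of the genes are shown because 2 of them, Fxyd5 and Atp1b3, moved with markers of other heart cells in the results that follow, while Fxyd1 and Atp1b1 were the steadiest. The windows are those of RefSeq on GRCm38.p6, all on the minus strand and read towards the gene: chr7:31042332-31042581 for Fxyd5, chr9:96364432-96364681 for Atp1b3, chr7:31054854-31055103 for Fxyd1 and chr1:164458356-164458605 for Atp1b1. The Fxyd1 window lies inside the span that the RefSeq gene table gives for the gene, at an inner start, and the others directly precede their gene's span. Capitals mark matches, on either strand, to GGGCGG (the GC box), CCAAT or TATAAA.
Fxyd5: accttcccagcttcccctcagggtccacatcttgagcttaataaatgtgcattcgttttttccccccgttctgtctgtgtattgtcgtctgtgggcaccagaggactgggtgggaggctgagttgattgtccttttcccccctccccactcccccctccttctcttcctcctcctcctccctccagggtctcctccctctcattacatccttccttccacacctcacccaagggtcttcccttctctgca
Atp1b3: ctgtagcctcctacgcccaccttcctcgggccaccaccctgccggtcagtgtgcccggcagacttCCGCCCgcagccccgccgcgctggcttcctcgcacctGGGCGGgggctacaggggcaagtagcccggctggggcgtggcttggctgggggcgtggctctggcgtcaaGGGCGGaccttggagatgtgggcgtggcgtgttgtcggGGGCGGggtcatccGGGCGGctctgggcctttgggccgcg
Fxyd1: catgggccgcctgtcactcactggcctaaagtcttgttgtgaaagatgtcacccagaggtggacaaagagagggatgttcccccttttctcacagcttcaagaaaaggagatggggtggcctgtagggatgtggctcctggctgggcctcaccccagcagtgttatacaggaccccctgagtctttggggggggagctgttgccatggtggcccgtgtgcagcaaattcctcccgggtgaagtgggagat
Atp1b1: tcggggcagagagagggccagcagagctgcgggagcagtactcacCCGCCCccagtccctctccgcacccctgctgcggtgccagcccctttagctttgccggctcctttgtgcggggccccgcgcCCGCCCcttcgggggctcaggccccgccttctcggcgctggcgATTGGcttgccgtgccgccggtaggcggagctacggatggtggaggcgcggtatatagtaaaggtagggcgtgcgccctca
The windows of Fxyd5 and Fxyd1 held none of the 3 motifs and 3 CpG dinucleotides each. Atp1b3 had 5 matches to GGGCGG, Atp1b1 had 2 and 1 match to CCAAT, and each held 24 CpG dinucleotides. A second RefSeq window of Atp1b3, at another start, held none of the motifs and 35 CpG dinucleotides. Of all 32851 windows of this length in the RefSeq table, 32.7% held GGGCGG, 33.8% CCAAT and 12.4% TATAAA, and the median number of CpG dinucleotides was 6. Fxyd5 and Fxyd1 were alike in these counts, and a relation between the counts and the behaviour of the genes was not tested. Promoters matched for 5 of the 7 genes, and those of Fxyd2 and Atp1b2 were not.

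No beta subunit or FXYD gene passed the test on any day on which it was tested. Fxyd2 was tested only at day 5 and for the mean of the 5 days. Each difference from sham was tested with limma across the 12102 genes, with Benjamini-Hochberg adjustment at 0.05. Of all genes, the test called 0% on days 1 and 12, 0.00826% on day 3, 0.0496% on day 5, 0.0413% on day 26 and 0.0248% for the mean of the 5 days. It called 0 of the tested genes of the set, and 0 of them had an unadjusted p under 0.05 (the lowest was 0.0693, of Atp1b3 at day 1). Over all genes, the share with an unadjusted p under 0.05 was 5.5% at day 1, 8.86% at day 3, 8.99% on day 5, 8.01% on day 12 and 14.3% on day 26. With so few calls among all genes, their absence here says little about the set.

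Atp1b1 encodes the main beta subunit of the heart's pump. Its log2 signal was 10.52, 10.58 and 10.54 in the sham arrays. It was 10.51 and 10.73 at day 1 after protons, 10.74, 10.46 and 10.69 at day 3, and 10.53, 10.50 and 10.50 at day 5. It was 10.37 and 10.60 at day 12 and 10.36 and 10.38 at day 26. Both arrays of day 26 lay below every sham array, and the other days overlapped sham or lay just beside it. The day 26 mean was 10.37 ± 0.01 (SD, n = 2) against 10.55 ± 0.03 (SD, n = 3) in sham, a log2 difference of -0.18 ± 0.10 (SE; 95% interval -0.39 to 0.03; limma adjusted p = 0.409). The smallest and largest other differences were -0.07 ± 0.10 at day 12 and 0.08 ± 0.09 at day 3. Atp1b1 had its lowest mean on the last day, by an amount that did not pass the test.

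Atp1b2 encodes a beta subunit best known from glia, where it also serves cell adhesion. Its signal was 5.45, 6.06 and 5.88 in sham, 5.78 and 6.10 at day 1, and 5.64, 5.51 and 5.85 at day 3. It was 6.00, 5.97 and 6.08 at day 5, 5.62 and 6.40 at day 12, and 6.29 and 6.11 at day 26. Sham alone spanned much of the range of the proton arrays, and only the day 26 arrays lay wholly above it. The day 26 difference was 0.41 ± 0.23 (95% interval -0.09 to 0.91; limma adjusted p = 0.431), and the other days ranged from -0.13 ± 0.21 at day 3 to 0.24 ± 0.23 at day 5.

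Atp1b3 encodes a beta subunit found on the surface of many cell types, white blood cells among them. Its signal was 8.55, 8.62 and 8.53 in sham, 8.86 and 9.02 at day 1, and 8.62, 8.55 and 9.22 at day 3. It was 8.74, 8.67 and 8.75 at day 5, 8.55 and 9.07 at day 12, and 8.92 and 8.64 at day 26. The sham arrays were close together and low, and on days 3, 12 and 26 a single proton array stood well above the others of its day. The mean was 8.57 ± 0.05 (SD, n = 3) in sham and 8.94 ± 0.11 (SD, n = 2) at day 1, a difference of 0.38 ± 0.19 (95% interval -0.03 to 0.79; limma adjusted p = 0.754). Differences on the other days lay between 0.16 ± 0.19 at day 5 and 0.25 ± 0.19 at day 12, and the mean over the 5 days was 0.25 ± 0.14 (adjusted p = 0.468). A second probe set of Atp1b3 gave 0.32 at day 1 and 0.10 to 0.18 on the other days, in the same direction on all 5 days but smaller than the first.

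**Figure D1:**
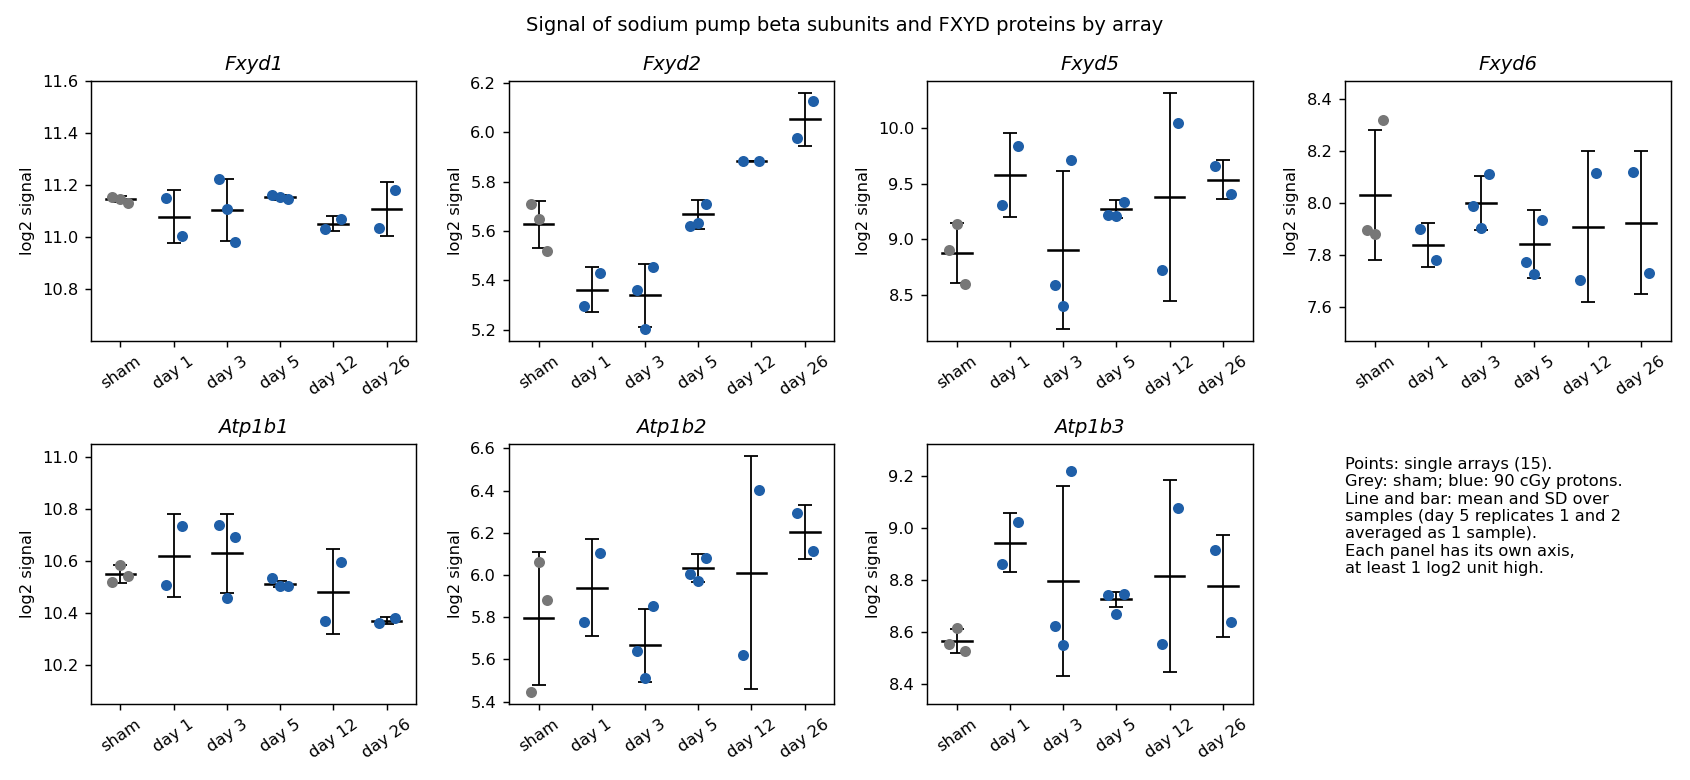
Log2 signal (y axis) of each of the 7 genes by group (x axis: sham, then days after protons), with 15 arrays as points and group means with SD as lines and bars. Fxyd1 keeps between 10.98 and 11.22 on every array, whereas Fxyd5 runs from 8.40 to 10.04 and Fxyd2 is lowest at days 1 and 3 and highest at day 26.

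Fxyd1, the gene of phospholemman, was the steadiest of the 7 genes. The signal was 11.16, 11.15 and 11.13 in sham, 11.15 and 11.01 at day 1, and 11.22, 11.11 and 10.98 at day 3. It was 11.16, 11.16 and 11.15 at day 5, 11.03 and 11.07 at day 12, and 11.04 and 11.18 at day 26. Only at day 12 did a day's arrays lie wholly outside the sham range, on the low side. No difference from sham exceeded -0.09 ± 0.07 (day 12; limma adjusted p = 0.679) in size, and the mean over the 5 days was -0.05 ± 0.05. Its SD over the 14 samples, 0.072, was lower than that of all but 1.62% of the genes tested, whose median SD was 0.178.

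Fxyd2 encodes the gamma subunit, best known from the kidney tubule. Its mean over the 15 arrays, 5.63, was low, not far above the median of all probe sets (5.00). Its signal was 5.71, 5.65 and 5.52 in sham, 5.30 and 5.43 at day 1, and 5.36, 5.20 and 5.46 at day 3. It was 5.62, 5.63 and 5.71 at day 5, 5.88 and 5.88 at day 12, and 5.98 and 6.13 at day 26. The 5 arrays of days 1 and 3 all lay below sham, those of day 5 lay within the sham range or at its upper edge, and the 4 arrays of days 12 and 26 all lay above it. The differences from sham were -0.26 ± 0.13 at day 1, -0.29 ± 0.11 at day 3, 0.26 ± 0.13 at day 12 and 0.43 ± 0.13 (1.34-fold) at day 26. Days 12 and 26 together were 0.62 above days 1 and 3 on the log2 scale. These are the values by which the gene was chosen. At day 5, which the choice did not use, the difference was 0.04 ± 0.13 (95% interval -0.23 to 0.32; limma adjusted p = 0.946).

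The remaining 6 genes showed no such division. The late-minus-early difference was 0.30 for Atp1b2, 0.22 for Fxyd5, -0.01 for Fxyd1, -0.004 for Fxyd6, -0.07 for Atp1b3 and -0.20 for Atp1b1, and in each of these the late and early arrays overlapped. Leaving out 1 array turned the sign of some of them, with Fxyd5 at -0.11 to 0.55 and Atp1b3 at -0.20 to 0.055. Among all genes tested, the late samples lay wholly above the early ones in 1.48% and wholly below in 2.59%, or 4.07% in either direction. Fxyd2 came into the set by this measure, so nothing is read from its place in that share. Of the family genes outside the set, Fxyd7, a brain FXYD gene, also had all late samples above all early ones, with a difference of 0.26. Its signal was 5.54 and 5.54 at day 1, 5.57, 5.65 and 5.39 at day 3, and 6.12, 5.95 and 5.76 at day 5. It was 5.76 and 5.74 at day 12, and 5.81 and 5.90 at day 26. The highest array of Fxyd7 was thus of day 5 and not of a late day. Its 3 sham arrays, at 5.70, 5.54 and 5.99, spanned most of these values.

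Fxyd5 encodes dysadherin, an FXYD protein linked to cell adhesion. The signal was 8.90, 9.14 and 8.59 in sham, 9.31 and 9.84 at day 1, and 8.59, 8.40 and 9.72 at day 3. It was 9.22, 9.21 and 9.33 at day 5, 8.72 and 10.04 at day 12, and 9.66 and 9.41 at day 26. Days 1, 5 and 26 lay wholly above sham, while at days 3 and 12 a single array was high, with the rest of day 3 below the lowest sham array and the rest of day 12 among the sham values. The difference was 0.70 ± 0.40 (1.62-fold; 95% interval -0.16 to 1.56; limma adjusted p = 0.754) at day 1. It was 0.66 ± 0.40 (1.58-fold; adjusted p = 0.451) at day 26, and the mean over the 5 days was 0.46 ± 0.28 (adjusted p = 0.51). The SD within a day reached 0.94 (n = 2) at day 12, which is larger than any of the day means' distances from sham.

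Fxyd6 encodes phosphohippolin, an FXYD protein first described in brain. Its signal was 7.90, 7.88 and 8.32 in sham, 7.90 and 7.78 at day 1, and 7.99, 7.90 and 8.11 at day 3. It was 7.77, 7.73 and 7.94 at day 5, 7.70 and 8.12 at day 12, and 8.12 and 7.73 at day 26. Every day overlapped sham, whose day 3 array was the highest of all 15. Differences ran from -0.19 ± 0.17 at days 1 and 5 to -0.03 ± 0.15 at day 3 (limma adjusted p between 0.77 and 0.962).

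**Figure D2:**
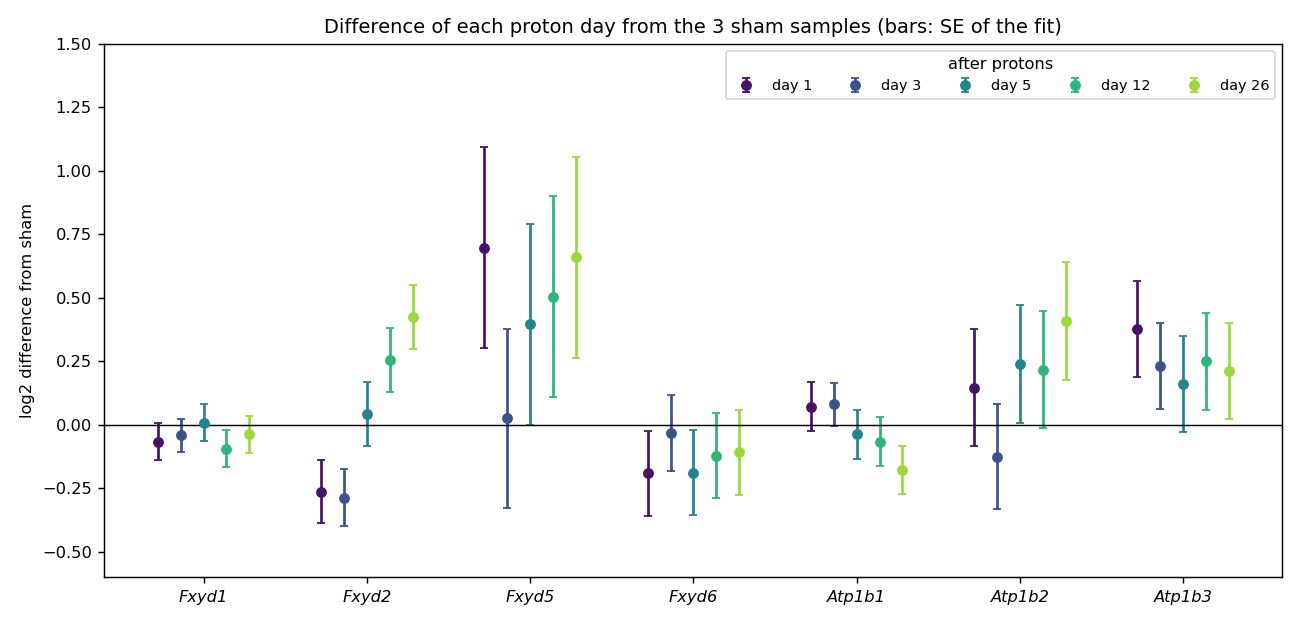
Log2 difference from the 3 sham samples (y axis) for each gene (x axis) at days 1, 3, 5, 12 and 26 after protons; points are fitted differences and bars their SE. Fxyd2 passes from -0.29 at day 3 to 0.43 at day 26, while Fxyd5 has the widest bars and its largest value, 0.70, at day 1.

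Counted by arrays alone, 2 of the 6 genes other than Fxyd2 did not overlap sham at day 1 (Fxyd5 and Atp1b3, both above), against 29.1% of all genes (14.2% above and 14.9% below). At day 3 it was 0 of 6, against 12.4% (8.00% above and 4.39% below), and at day 5 again Fxyd5 and Atp1b3, against 32.6% (16.8% above and 15.8% below). At day 12 it was Fxyd1 alone, below, against 21.1% (9.92% above and 11.2% below). At day 26 it was 4 of 6 (Fxyd5, Atp1b2 and Atp1b3 above, Atp1b1 below), against 38.8% (24.7% above and 14.1% below). The second probe set of Atp1b3 overlapped sham at day 26 (8.72 and 8.40 against 8.42, 8.37 and 8.48), though at days 1 and 5 it too lay above sham. With all 11 proton samples set against sham, the count was 0 of 6, against 1.74% (0.826% above and 0.909% below). With 2 or 3 samples in a group such separation was common among all genes, and most of these counts are near it.

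The arrays that were high in Fxyd5 were also high in Atp1b3. Proton day 1 replicate 2, day 3 replicate 3, day 12 replicate 2 and day 26 replicate 1 each held the highest value of their day in both genes. The same arrays had higher signals for markers of other heart cells. A score was taken as the mean, over lists of 10 endothelial, 10 fibroblast and 10 macrophage markers, of each gene's deviation from its own mean. It was 0.50, 0.45, 0.70 and 0.45 in those 4 samples, and between -0.71 and 0.12 in the remaining 10. In sham it was -0.25, -0.07 and -0.42. Markers of heart muscle cells were high on every array, with a mean of 11.54 to 11.77 over 10 genes, all above the median probe set. In such bulk samples, fewer cells of a type and less RNA per cell cannot be told apart.

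The 3 lists of the score were also read one by one. The mean log2 signal of the macrophage list was 6.45 to 6.93 in sham, 7.21 to 7.85 at day 1, 6.09 to 7.49 at day 3, 6.91 to 6.95 at day 5, 6.67 to 7.81 at day 12 and 7.13 to 7.34 at day 26. For the endothelial list it was 7.60 to 7.95 in sham, 8.01 to 8.26 at day 1, 7.18 to 8.32 at day 3, 7.71 to 8.04 at day 5, 7.83 to 8.52 at day 12 and 7.89 to 8.37 at day 26. The fibroblast list gave 6.67 to 7.05 in sham, 7.20 to 7.47 at day 1, 6.46 to 7.60 at day 3, 7.25 to 7.33 at day 5, 6.85 to 7.85 at day 12 and 7.25 to 7.70 at day 26. All 10 endothelial and all 10 macrophage markers lay above the median probe set, and 9 of 10 fibroblast markers did, Tcf21 being the exception. The macrophage list lay wholly above sham on days 1 and 26, the fibroblast list on days 1, 5 and 26 and the endothelial list on day 1. Fxyd5 lay wholly above sham on days 1, 5 and 26.

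Fxyd5 followed the score almost point for point. Over the 14 samples Pearson's r was 0.986 and Spearman's rho 0.974, each with a permutation p of 2e-05 (2-sided), the smallest the permutations can give. Without the 2 samples farthest from the median score, r was 0.977, and for deviations from the group means it was 0.986. Of all 12102 genes, 0.00826% had a higher r. Fitted with the 6 groups in limma, Fxyd5 rose by 1.21 ± 0.08 log2 units per unit of score (adjusted p = 2.61e-07 over all genes), and the slope stayed at 1.12 or above and was called on leaving out each array. Slopes of either sign were called in 21.1% of genes, 14.0% positive and 7.15% negative.

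Atp1b3 did likewise with a shallower slope of 0.55 ± 0.06 (limma adjusted p = 2.8e-05), which was 0.53 or more and called on leaving out each array. Its r was 0.868 and rho 0.912 (permutation p = 4e-05 for both), r was 0.852 without the 2 farthest samples and 0.989 for deviations from the group means, and 4.46% of genes had a higher r. For Atp1b2 r was 0.773 (permutation p = 0.0017) and rho 0.745 (p = 0.00346, permutation), with r at 0.628 without the 2 farthest samples and 0.736 within groups, and 8.37% of genes were higher. Its slope was 0.48 ± 0.15 (limma adjusted p = 0.0361). That call was lost, at adjusted p from 0.0506 to 0.243, on leaving out any of 8 arrays: both of day 1, both of day 12, both of day 26, the second of day 3 and the second sham of day 1. The slope was 0.76 when the third array of day 3 was left out.

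Fxyd1 leaned the opposite way, with r of -0.58 (permutation p = 0.0299), rho of -0.46 (permutation p = 0.0984), -0.69 without the 2 farthest samples and -0.59 within groups. Its slope of -0.11 ± 0.06 did not pass in limma (adjusted p = 0.179). Fxyd2 had r of 0.39 and rho of 0.32, and r of 0.11 without the 2 farthest samples, with a slope of 0.11 ± 0.11. These are given as a description with no test, because the values that chose the gene enter them. Fxyd6 had r of 0.10 (permutation p = 0.727) and rho of 0.12 (permutation p = 0.693), and Atp1b1 had r of 0.13 (permutation p = 0.647) and rho of 0.09 (permutation p = 0.747). Without the 2 farthest samples r was -0.07 for Fxyd6 and -0.02 for Atp1b1, and within groups 0.44 and 0.62. Their slopes, 0.21 ± 0.13 and 0.16 ± 0.07, did not pass (limma adjusted p = 0.281 and 0.116), although Atp1b1 was called without proton day 3 replicate 1 (0.22, adjusted p = 0.0154). The relations of the 7 genes form a single family, and the adjusted values given are those of the limma slopes, over all genes.

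**Figure D3:**
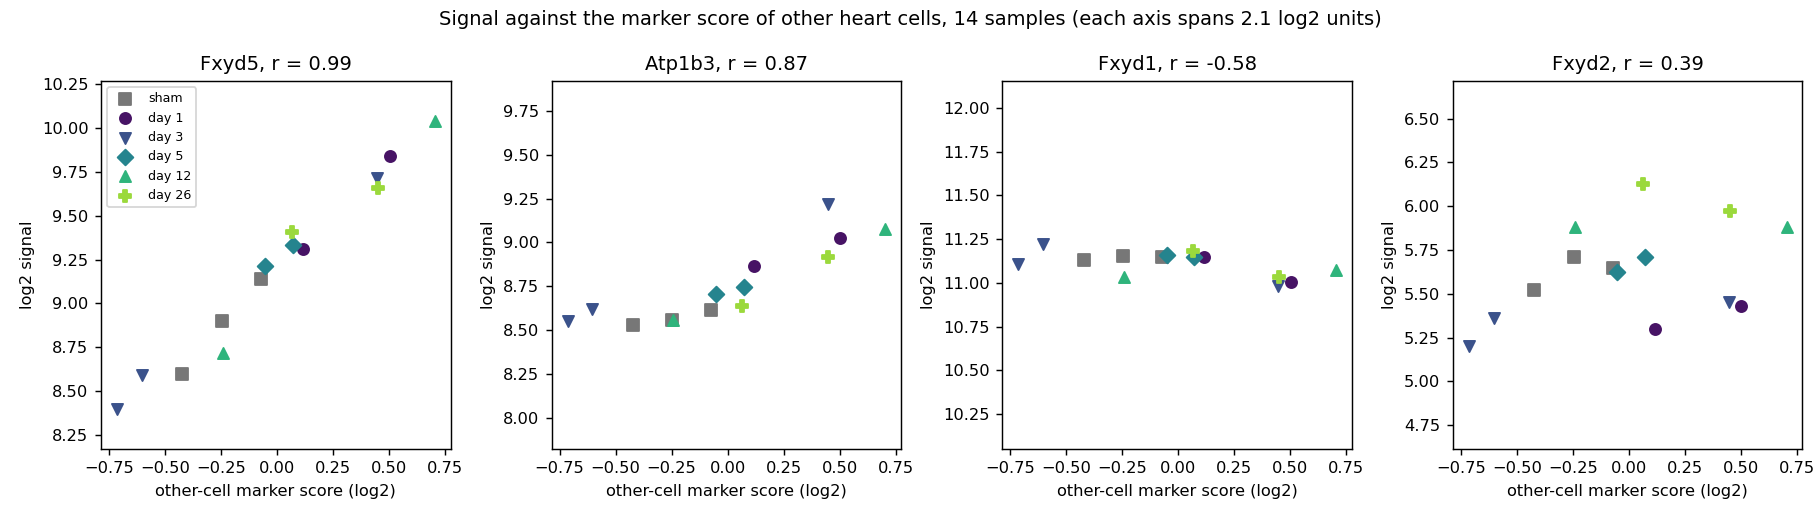
Log2 signal of Fxyd5, Atp1b3, Fxyd1 and Fxyd2 (y axis, 2.1 log2 units in each panel) against the marker score of other heart cells (x axis, log2 deviation) in 14 samples, with symbols by group. Points of Fxyd5 (r = 0.986) and Atp1b3 (r = 0.868) rise with the score across all groups, and those of Fxyd1 (r = -0.58) are nearly level.

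With the score added to the fit, the differences of Fxyd5 from sham were 0.03, 0.08, 0.09, -0.07 and 0.05 in order of day. Those of Atp1b3 were 0.07 on day 1, 0.02 on day 5, -0.01 on day 12 and -0.07 on day 26. Its day 3 difference was 0.25 ± 0.06 (limma adjusted p = 0.067), the lowest adjusted p of any tested difference from sham in the set under any setting. Both genes lay closer to sham at the same score on every day but day 3. For a gene that follows the score as closely as Fxyd5 (r = 0.986), this comes from the relation itself, and its cause was not tested. The day 26 difference of Atp1b2 went from 0.41 to 0.17 and that of Atp1b1 from -0.18 to -0.26 (adjusted p = 0.147). For Fxyd2 the day 26 difference was 0.37 and the late-minus-early difference 0.59, close to the values without the score.

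Other cell types were looked at beside Fxyd2. In all 12 marker lists the early and the late samples overlapped. The lymphocyte list had a late-minus-early difference of 0.95, with early samples from -1.19 to 0.35 and late ones from -0.05 to 1.01, and the adipocyte list one of 0.57, from -0.60 to 0.41 early and from -0.35 to 1.07 late. The difference was 0.33 for fibroblast markers, 0.30 for endothelial, 0.27 for smooth muscle and for atrial, 0.25 for macrophage, -0.67 for neutrophil, -1.01 for erythroid, 0.13 for mesothelial, 0.11 for Schwann and neural and -0.09 for cardiomyocyte markers. Of the lymphocyte markers Cd3g and Ms4a1 lay below the median probe set, and of the adipocyte markers Adipoq and Lep did, which are defining for those cells. The part of these cell types in the Fxyd2 values was not tested.

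The FXYD genes lie in groups in the RefSeq gene table. Fxyd5, Fxyd7, Fxyd1 and Fxyd3 lie together on chromosome 7, with Lgi4 between the last pair, and Fxyd6 and Fxyd2 are next to each other on chromosome 9. Neighbours differed widely in these arrays. Fxyd3, an epithelial FXYD gene, had 5.27, 5.85 and 4.53 in sham, 5.99 and 5.98 at day 1, 4.88, 4.60 and 6.57 at day 3, 6.38, 6.40 and 5.72 at day 5, 5.21 and 6.94 at day 12, and 5.84 and 5.63 at day 26. Its SD over the 14 samples was 0.71, above that of 99.1% of genes, beside 0.51 for Fxyd5 (96.8%), 0.18 for Fxyd7 and 0.072 for Fxyd1. Fxyd3 also rose with the score, by 1.62 ± 0.24 per unit (limma adjusted p = 0.000264), whereas Fxyd7 had a slope of -0.19 ± 0.13 (adjusted p = 0.294) and Fxyd4 one of -0.16 ± 0.21 (adjusted p = 0.614). On chromosome 9, the SD was 0.27 for Fxyd2 and 0.18 for Fxyd6, and Fxyd6 showed none of the early-to-late difference of its neighbour. Atp1a4 and Atp1b4, both known from restricted tissues, lay below the median probe set.

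**Figure D4:**
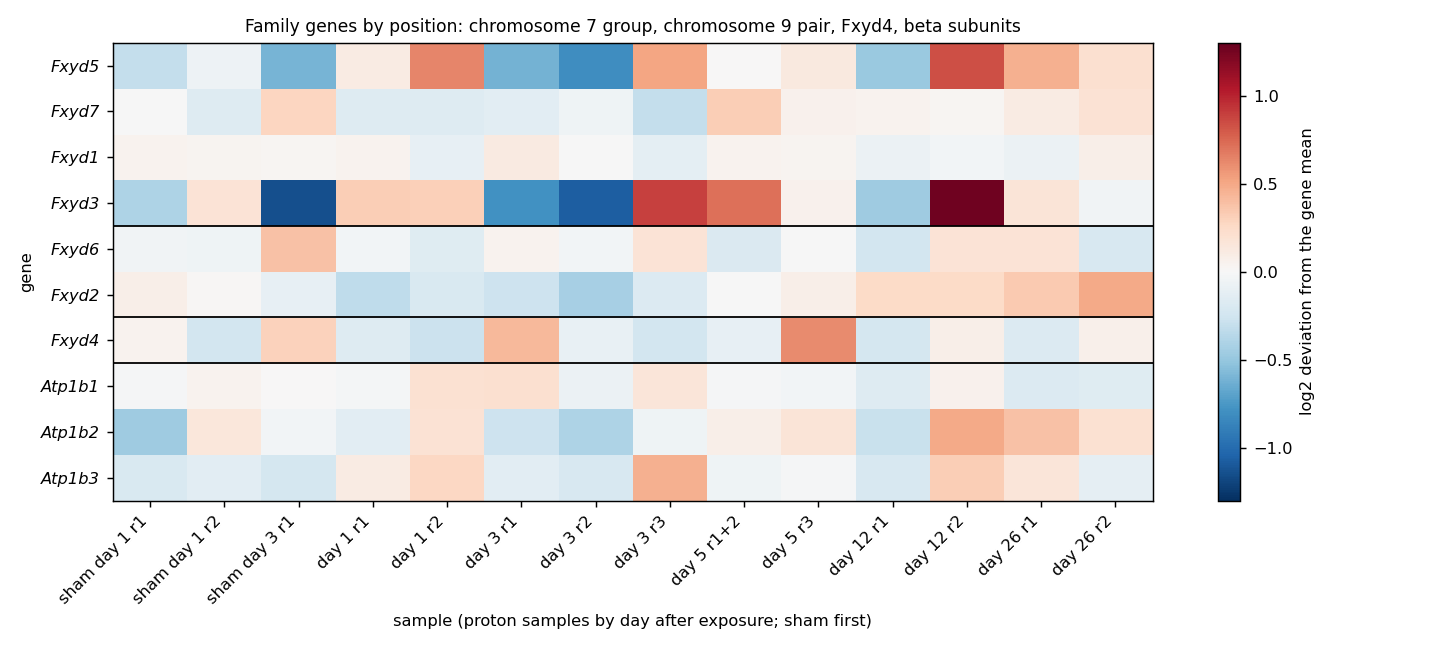
Log2 deviation from each gene's mean (colour) for 10 genes of the family (rows, ordered by chromosomal neighbourhood) in 14 samples (columns, sham first and then by day). Fxyd5 and Fxyd3 share their dark columns, such as day 12 replicate 2, while Fxyd1 and Fxyd7 between them stay pale, and Fxyd2 turns from blue at days 1 and 3 to red at days 12 and 26.

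Genes with the pattern most like that of each gene were ranked by Pearson's r of the log2 signal over the 14 samples, as a description with no test. Nearest to Fxyd2 were Pla2g2d (0.888), Aida (0.853), Cdc42ep2 (0.849), Snai2 (0.848) and Ptms (0.839). Pla2g2d, a secreted phospholipase, had a late-minus-early difference of 0.52, Cdc42ep2, an effector of the small GTPase Cdc42, of 0.62, and Aida of 0.28. Nearest to Fxyd5 were Ifitm1 (0.991), an interferon-induced membrane protein, S100a11 (0.989), a calcium-binding protein, and Emp3 (0.985). Atp1b3 was nearest to Gas6 (0.972), Heg1 (0.971) and Actn1 (0.959), and Atp1b2 to Tnfrsf21 (0.951), Ssh1 (0.925) and Itpkb (0.919). Nearest to Fxyd1 were Usp20 (0.887), Rflna (0.878) and Tenm2 (0.867). Atp1b1 was nearest to Ppp1r12b (0.887), Mtch2 (0.884) and Mical3 (0.871), and Fxyd6 to Fam216a (0.826), Nup93 (0.822) and Scrn1 (0.801).

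The transporters and channels that share sodium and calcium handling with the pump were read from a list of 16 genes, of which 7 were tested, and 0 passed the test on any day. Their median difference from sham was, in order of day, 0.22, 0.06, 0.13, 0.11 and 0.02, against -0.01, 0.004, 0.01, 0.01 and 0.05 over all genes tested. Scn4b, a beta subunit of the sodium channel, had 0.38 ± 0.16 at day 26 (limma adjusted p = 0.296). Slc4a4, a sodium bicarbonate cotransporter, had 0.40 at day 3 (adjusted p = 0.429) and a mean over the 5 days of 0.27 ± 0.11. Slc12a2, the sodium-potassium-chloride cotransporter, had a mean of 0.25 ± 0.14. At an unadjusted p under 0.05 there was 1 gene at days 1, 3, 5 and 26 each and 0 at day 12, which at 7 genes is near the share over all genes (5.5% to 14.3% by day).

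Of 19 genes that regulate or anchor the pump (kinases, phosphatase subunits, caveolins, ankyrins and the mineralocorticoid path), 17 were tested and 0 passed. Their medians were 0.03, 0.02, 0.05, -0.01 and -0.03 from day 1 to day 26, close to those of all genes. Nos3, endothelial nitric oxide synthase, had 0.67 ± 0.37 at day 26 (limma adjusted p = 0.418) and 0.48 at day 1, when the endothelial list was at 7.89 to 8.37 and at 8.01 to 8.26, against 7.60 to 7.95 in sham. Ppp1r1a, an inhibitor of protein phosphatase, had -0.33 at day 12, and Cav1, the caveolin of endothelium, had 0.36 at day 12 and 0.33 ± 0.38 at day 26. At day 26 Cav3, the caveolin of muscle, had -0.31 ± 0.13 (limma adjusted p = 0.315) and Ank3, an ankyrin, -0.29 ± 0.09 (limma adjusted p = 0.216). In each of the 2, both arrays of that day lay below every sham array, as in 14.1% of all genes tested. They were named after their values were seen, so nothing is read from this. The numbers with an unadjusted p under 0.05 were 0, 0, 0, 3 and 2 from day 1 to day 26, against 5.5%, 8.86%, 8.99%, 8.01% and 14.3% of all genes. The part of other cell types in the Nos3 and Cav1 values was not tested.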

How the data were processed

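RNA of isolated left-ventricular cardiomyocytes was hybridised to 15 Affymetrix arrays. Values were deposited by the authors as log2 signals of 34760 probe sets, from 0.123 to 12.9; the submitters' processing notes name MAS5, with no version, and background correction is not given in the sources used here. Each array's 95th percentile was 9.11 to 9.16, while the array medians ran from 4.90 to 5.16. The mean signals of Fxyd2 (5.63) and Atp1b2 (5.92) lay nearer to the medians than to that percentile, as did those of Fxyd3 (5.72), Fxyd4 (5.39) and Fxyd7 (5.73). The values were used as deposited.

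Of the probe sets, 21640 carried 1 symbol, 1321 several and 11799 none in the platform annotation. Genes were fitted in R 4.3.3 with limma 3.58.1 (lmFit, eBayes with a trend) to 6 groups of samples (14 in all; residual degrees of freedom 8, or 12.1 after moderation), with Benjamini-Hochberg adjustment over 12102 genes. Correlations used 100000 permutations in Python 3.11.15 (numpy 2.4.6, scipy 1.17.1). The plan to adjust them over the 7 genes alone was replaced, after the data were seen, by the slopes in limma over all genes. The averaging of the 2 near-identical day 5 arrays, which followed an earlier analysis of these data, has the 15 arrays kept apart as an alternative. The procedure was also run on simulated data in which noise was drawn independently for each gene. Variation that genes share between arrays was not part of it, so it does not measure how the tests perform here. The genes and all lists were chosen with earlier results of these data known.

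The genes named are the 7 of the set, their family, the genes of the sodium-handling and regulator lists with the largest differences, and the 5 (Fxyd2) or 3 nearest by correlation. Alternatives covered scaling, filter, probe choice, variance model, control samples, the replicate block, the score and leaving out each array.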

Additional observations from a re-analysis of the deposited data

Results flagged for a closer look

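Fxyd2 is flagged for opposite directions over time, in the same values by which it was chosen. All samples of days 1 and 3 lay below the sham mean, and all samples of days 12 and 26 lay above it. The late-minus-early difference was 0.62 on the log2 scale. The difference was not tested, because the gene was chosen by it. The share of all genes with samples placed this way around the sham mean is not given. Whether Fxyd2 is unusual in this was therefore not tested. No group had the 4 samples that a search for outlying samples needs.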

How the results depend on the processing

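No gene of the set was called in any contrast in which it was tested, under 27 settings. Of 1292 recomputed differences 1225 kept their direction and 67 changed sign, 32 of those on leaving out an array (52 were differences from sham and 15 late-minus-early ones). Many of the 1292 could not change. The filter, the variance model and the omission of an array outside a comparison leave its difference as it was. The 1225 is therefore no measure of stability. The late-minus-early difference of Fxyd2 stayed between 0.52 (equal array medians) and 0.65 (array weights), with 0.58 to 0.65 on leaving out arrays. Signs turned for some larger differences too, such as Fxyd5 at day 12, and the cause was not tested. With quantile normalization, Atp1b1 was 0.0129 at day 5 and 0.0186 over the 5 days, and Fxyd2 -0.0148 and -0.0068. With equal medians, Fxyd1 was -0.0452 and Fxyd2 -0.0103 at day 5. The same setting lowered the day 26 difference of Fxyd2 from 0.43 to 0.32. Array weights gave Fxyd5 -0.24 at day 3. With sham of day 1 only, Fxyd2 was -0.0109 at day 5 and -0.0184 over the days, Fxyd5 -0.12 at day 3, and Fxyd6 0.11 at day 3, 0.0212 at day 12, 0.04 at day 26 and 0.0154 over the days. The score as a covariate gave Atp1b1 -0.0189 and Atp1b2 -0.12 at day 1, Atp1b2 -0.0138, Atp1b3 -0.0143 and Fxyd5 -0.0729 at day 12, Atp1b3 -0.0673 and Fxyd1 0.0183 at day 26, and Fxyd2 -0.0036 over the days. Deviations from the group means in same-numbered samples had r from -0.72 to 0.46 (26 pairs, median r -0.083, 9 above 0.1). In groups of 2 samples these deviations mirror each other, so the pairs are not independent. Differently numbered pairs were not set beside them, so whether the numbers pair the samples was not tested. With the replicate block, which drops the sham of day 3, Fxyd5 was -0.35 at day 3 and -0.0271 at day 5, Atp1b3 -0.0332 at day 5, Fxyd2 -0.0761 at day 5 and -0.0404 over the days, and Fxyd6 0.0521 at day 3, 0.0212 at day 12 and 0.0361 at day 26, and no call changed. Against fibroblast markers alone Fxyd1 had r of -0.49 (permutation p = 0.0722), and against macrophage markers alone Fxyd6 had -0.0099. Leaving out each array in turn gave, at day 1, Atp1b1 -0.042 to 0.18, Atp1b2 -0.029 to 0.31 and Fxyd1 -0.14 to 0.0048. At day 3 it gave Atp1b2 -0.30 to 0.0051, Fxyd1 -0.10 to 0.020, Fxyd5 -0.38 to 0.28 and Fxyd6 -0.11 to 0.11. At day 5 Fxyd2 ran from -0.011 to 0.084. At day 12 Atp1b1 ran from -0.18 to 0.048, Atp1b2 from -0.17 to 0.61, Atp1b3 from -0.011 to 0.51, Fxyd5 from -0.16 to 1.17 and Fxyd6 from -0.33 to 0.083. At day 26 Fxyd1 ran from -0.11 to 0.035 and Fxyd6 from -0.30 to 0.086. Over the 5 days Fxyd2 ran from -0.018 to 0.0765 and Fxyd6 from -0.205 to 0.015. The slopes on the score ran from 0.11 to 0.25 for Atp1b1, 0.33 to 0.76 for Atp1b2, -0.18 to -0.042 for Fxyd1, 0.048 to 0.16 for Fxyd2 and 0.11 to 0.28 for Fxyd6. Late minus early ran from 0.11 to 0.50 for Atp1b2, -0.11 to 0.099 for Fxyd6 and -0.047 to 0.025 for Fxyd1. Groups of 2 or 3 samples limit every comparison.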
